A study of Mus musculus with 34 samples.

Results

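The MAPK feedback genes are 10 genes of RAS-ERK signalling, Dusp4, Dusp5, Dusp6, Spry1, Spry2, Spry4, Spred1, Spred2, Etv4 and Etv5. They were chosen by name and make up 10 of the 52661 rows of the expression table. Their levels were followed in N2A cells, a mouse neuroblastoma line, under 27 compounds and the solvent DMSO. All cells received a final concentration of 0.4% DMSO for 24 h, and polyA+ RNA was sequenced. DMSO alone had 3 libraries, each of 4 histone deacetylase (HDAC) inhibitors had 2, and each of the other 23 compounds had 1, which gave 34 libraries.

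Growth factor receptors activate RAS, which passes the signal through the kinases RAF and MEK to ERK. Active ERK induces genes whose products damp the same cascade, so the transcripts of these genes are commonly read as a gauge of ERK output. The dual-specificity phosphatases DUSP4, DUSP5 and DUSP6 remove phosphate from ERK, Sprouty and SPRED proteins restrain the cascade at RAS and RAF, and ETV4 and ETV5 are ETS transcription factors of the PEA3 family that act downstream of receptor tyrosine kinases.

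The kinase inhibitors with the targets listed by the study were Trametinib (MEK1 and MEK2, 1 μM), SCH-772984 (ERK1 and ERK2, 2 μM), Crenolanib (platelet-derived growth factor receptors, 2 μM), GNF-5837 (targets not reported here, 500 nM), A-443654 (AKT1, 250 nM), NVP-AEW-541 (IGF1R, 1 μM) and MK-1775 (WEE1, 2 μM). The HDAC inhibitors were Vorinostat (2.5 μM), CI-994 (5 μM), BRD4884 (10 μM) and BRD6688 (10 μM), and 5-azacytidine, a DNA methyltransferase inhibitor, was given at 5 μM. The screening compounds with no listed target were T5985871, T5635931, T5758020, T5963258 and a ChemBridge compound (6.7 μM each), BTB13120 (625 nM), AW00693, S02045 and JFD00822 (5 μM each), BTB12021 and SPB00858 (20 μM each), and RDR00572, RH01954, BTBS00065 and SEW06315 (2.5 μM each). The doses differed between compounds, so a difference between compounds is also a difference between doses.

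Levels were read on 2 scales. RPKM, a level scaled to transcript length and to library size, was given as 1 merged value per condition, without spread. Spliced reads, those that cross an exon-exon junction, were summed over the introns of a gene in each library and are given as spliced RPM, the reads scaled to a library total of 1000000 spliced reads, and these carry the spread between libraries. Spliced reads ranged from 17702718 to 40613524 per library (median 26332957). Of 12 markers of sympathetic neuroblastoma, 10 exceeded 5 RPKM in DMSO, while 0 of 6 markers of fibroblasts, glia and blood cells did. The summed RPKM of the neuroblastoma markers was 1128.01 in DMSO and between 1231.98 and 1565.84 with Trametinib, SCH-772984, Crenolanib and GNF-5837, and that of the other markers was 2.88 and between 2.92 and 4.13. The part of these shifts in the results was not tested.

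In DMSO, Etv4 had the highest level, 65.98 RPKM, and Dusp4 followed with 60.31. Etv5 (35), Spred1 (33.26), Spred2 (30.48) and Dusp6 (22.01) lay in the middle of the range, and Spry2 (12.90), Spry4 (6.60), Dusp5 (6.33) and Spry1 (3.60) were lowest. Since RPKM came without spread, neighbours in this order could not be tested against each other. Across the 28 conditions the highest level exceeded the lowest by 319-fold for Dusp6, 173-fold for Etv5, 155-fold for Spry4, 72.0-fold for Etv4 and 63.3-fold for Dusp4. The range was narrower for Spry1 (23.8-fold), Spred2 (9.25-fold), Spred1 (7.40-fold), Spry2 (6.72-fold) and Dusp5 (5.92-fold).

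On GRCm38, Dusp4 spans chr8:34807297-34819894, Dusp5 chr19:53529109-53542431, Dusp6 chr10:99263231-99267489, Spry1 chr3:37639947-37644598, Spred1 chr2:117121374-117182279 and Spred2 chr11:19924375-20024026, all on the plus strand. Spry2 (chr14:105891947-105896819), Etv4 (chr11:101769742-101785371) and Etv5 (chr16:22381309-22439719) lie on the minus strand. Gene lengths run from 4259 bases for Dusp6 to 99652 for Spred2.

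Promoters from 250 bases before to 50 bases after the start were found in RefSeq (GRCm38.p6) for 7 members. Those of Dusp6, the phosphatase with the widest range of levels, of Dusp5, with the narrowest, and of Spred2 are shown, read 5′ to 3′ on the plus strand. They lie at chr10:99262981-99263280, chr19:53528895-53529194 and chr11:19924192-19924491. Capitals mark the CArG box, which serum response factor binds, the core TGACG of the CRE, the site of CREB family factors, and the ETS site GGAAGT, each sought on both strands, so that CGTCA and ACTTCC are the last 2 on the other strand.
Dusp5: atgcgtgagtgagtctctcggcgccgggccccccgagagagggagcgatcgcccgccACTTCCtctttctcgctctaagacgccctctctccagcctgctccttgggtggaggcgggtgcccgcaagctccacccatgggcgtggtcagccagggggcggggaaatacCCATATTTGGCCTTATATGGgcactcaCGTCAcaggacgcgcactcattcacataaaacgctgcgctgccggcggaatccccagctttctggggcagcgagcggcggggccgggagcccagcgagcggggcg
Dusp6: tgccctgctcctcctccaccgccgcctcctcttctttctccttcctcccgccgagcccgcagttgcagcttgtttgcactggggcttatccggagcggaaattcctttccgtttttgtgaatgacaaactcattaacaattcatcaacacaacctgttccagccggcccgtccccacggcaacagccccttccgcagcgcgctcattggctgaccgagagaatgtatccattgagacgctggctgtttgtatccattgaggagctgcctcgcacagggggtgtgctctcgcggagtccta
Spred2: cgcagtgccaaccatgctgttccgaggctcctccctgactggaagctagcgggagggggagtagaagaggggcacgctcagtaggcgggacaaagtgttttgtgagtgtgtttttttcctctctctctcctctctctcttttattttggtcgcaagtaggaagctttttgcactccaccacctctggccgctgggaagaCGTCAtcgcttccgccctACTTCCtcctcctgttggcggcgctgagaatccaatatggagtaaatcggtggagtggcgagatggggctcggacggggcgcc
The Dusp5 promoter held 2 adjoining CArG boxes, from 82 to 73 and from 72 to 63 bases before the start, then a CRE core and, further upstream, an ETS site. A CArG box was present in 1.63% of 32851 mouse promoters of the same length, and 2 or more in 0.0183%. The Spred2 promoter held a CRE core and an ETS site, which 20.8% and 23.8% of promoters hold, and that of Dusp6 held none of these motifs. Among the 8 promoters found for the 7 members, 1 held a CArG box, 2 a CRE core and 3 an ETS site. The letters of a match do not show that a factor is bound.

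By RPKM, a member was counted as lower or higher when log2((RPKM + 0.5)/(DMSO RPKM + 0.5)) passed -1 or 1 and either value exceeded 5 RPKM. Of 270 pairs of member and compound, 248 could be scored, and the 22 others were of Spry1, which stayed under the limit. There were 33 lower pairs, 8 higher pairs and 207 within 2-fold, against 3.86% lower and 2.67% higher over all genes and the 27 compounds. The lower pairs were concentrated in 4 compounds, Trametinib, Crenolanib and GNF-5837 with 9 members each and SCH-772984 with 5, and the remaining one was Etv4 with Vorinostat. Over all genes the lower share was 1.86% with Trametinib, 2.46% with Crenolanib, 5.7% with GNF-5837, 1.27% with SCH-772984 and 22.5% with Vorinostat. The 8 higher pairs were Dusp4 with Vorinostat and CI-994, Dusp6 with these and with BRD4884, BRD6688 and A-443654, and Spry1 with CI-994, with higher shares over all genes of 10.4%, 10.2%, 5.29%, 5.14% and 1.48% for Vorinostat, CI-994, BRD4884, BRD6688 and A-443654. In 18 of the 27 compounds no member passed the limit.

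**Figure D1:**
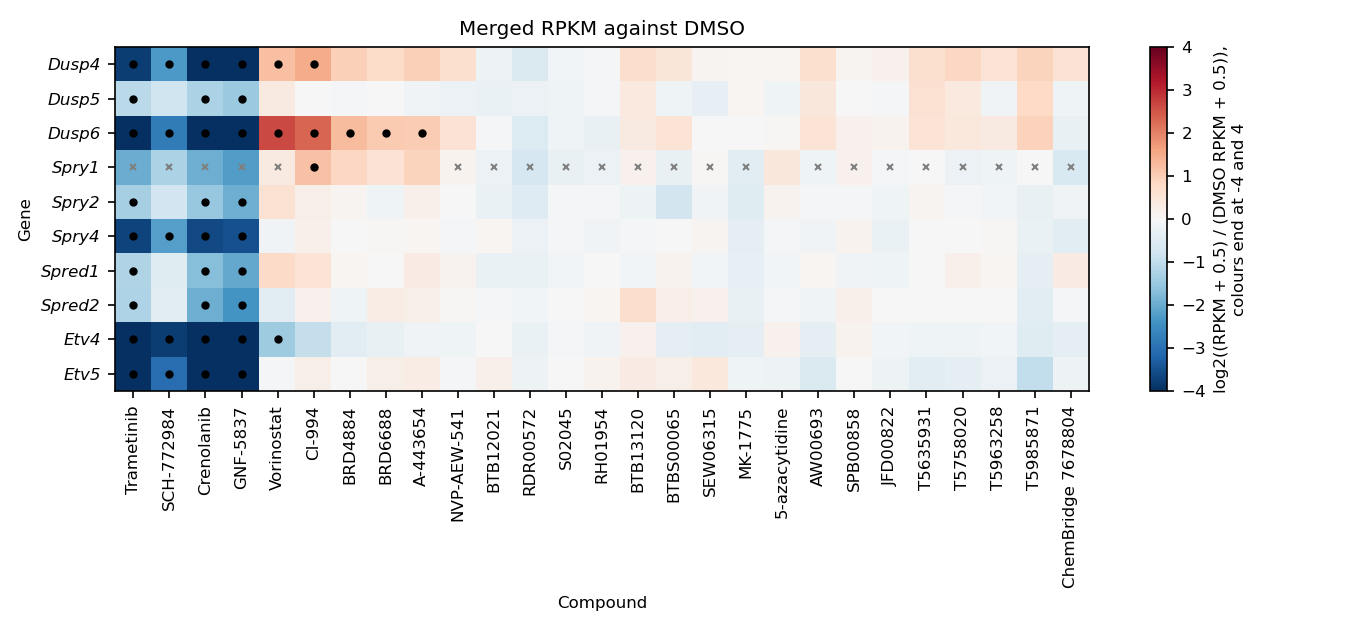
Log2 ratio of merged RPKM to DMSO for the 10 members (rows) under 27 compounds (columns), 0.5 RPKM added, with colours that end at -4 and 4. Black dots mark the 33 lower and 8 higher pairs, and grey crosses the 22 pairs of Spry1 under 5 RPKM in both conditions. The 4 columns on the left are dark blue or blue in nearly all rows, and red is deepest for Dusp6 with Vorinostat and CI-994.

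The median ratio of all genes was itself below 0 for most compounds, down to -0.44 on the log2 scale with CI-994, and lay beyond 0.1 in 14 compounds. Relative to that median there were 32 lower and 14 higher pairs, so that the lower share of called pairs was 69.6% in place of 80.5%, almost wholly through the added higher pairs. The added higher pairs were Dusp4, Dusp5 and Dusp6 with T5985871, Dusp4 and Spry1 with BRD4884, and Spred1 with Vorinostat, and Dusp5 with Trametinib was no longer counted as lower.

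Spliced reads gave each library a value and were tested with limma across 11223 genes, with Benjamini-Hochberg adjustment over all of them and an adjusted p below 0.05 as the limit. The spread came from the 3 DMSO and 8 HDAC inhibitor libraries, with 6 residual degrees of freedom, and a compound with 1 library was assumed to vary as they do. Where few reads of a gene were left in such a library, its counting error can exceed this spread. The SE, intervals and p-values of the fit are then too small. The study describes the HDAC inhibitor libraries as biological replicates, and for DMSO it states 2 such replicates where the labels give 3 libraries. The labels do not say that the HDAC inhibitor or DMSO libraries were separate cultures, so the p-values measure the spread between these samples. Spry1 had 0 to 35 spliced reads per library and was not tested. Its 2 CI-994 libraries differed widely, at 1.37 and 0.111 spliced RPM, while the merged RPKM of CI-994 was counted as higher. In the 243 pairs of the other 9 members, 41 were lower and 53 higher, against 11.6% and 13.6% over all genes. Of the lower pairs 33 fell in the 36 pairs of the 4 kinase inhibitors, and of the higher pairs 26 fell in the 36 pairs of the HDAC inhibitors. All 40 pairs called by RPKM that could be tested here passed in the same direction. In bulk RNA, fewer cells that express a gene and less RNA per cell cannot be told apart.

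The phosphatase transcripts fell steeply with Trametinib. All 9 members tested were lower with it, against 8.71% of all genes. Dusp6, which encodes a cytoplasmic phosphatase selective for ERK, had 13.96, 15.1 and 13.6 spliced RPM in the DMSO libraries and 0.264 with Trametinib. Only 7 reads were counted there, and the SE of the fit leaves out their larger counting error. This was 50.2-fold lower, a log2 difference of -5.65 (SE 0.14, adjusted p = 3.67e-11). Dusp4, a nuclear phosphatase, stood at 51.5, 48.5 and 43.2 in DMSO and 2.57 with Trametinib, a difference of -4.20 (SE 0.12, adjusted p = 8.43e-11). Dusp5, the nuclear phosphatase specific for ERK, went from 8.99, 10.4 and 7.84 to 4.30, a much smaller difference of -1.06 (SE 0.18, adjusted p = 1.39e-03). In each of the 3 genes the treated library lay below all DMSO libraries, as did 36.4% of all genes.

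The ETS factors fell to a few percent of their level. Etv4 had 104, 97.5 and 96.7 spliced RPM in DMSO and 1.77 with Trametinib (log2 difference -5.79, SE 0.10, adjusted p = 1.02e-12). Etv5 had 51.0, 55.1 and 50.2 in DMSO and 0.793 with Trametinib (-6.00, SE 0.18, adjusted p = 1.70e-10). By RPKM these were falls from 65.98 to 1.41 and from 35 to 0.42, or to 2.14% and 1.20% of DMSO.

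Within the Sprouty and SPRED genes the size of the loss varied. Spry4 had 3.42, 4.02 and 3.90 spliced RPM in DMSO and 0 reads with Trametinib, which is at least 33.4-fold lower when 3 reads are taken as the limit of a count of 0. Spry2 fell from 9.80, 12.6 and 7.59 to 4.30 (log2 difference -1.18, SE 0.25, adjusted p = 5.41e-03). Spred1, whose product works with neurofibromin to switch RAS off, fell from 55.5, 56.5 and 57.8 to 28.8 (-0.97, SE 0.12, adjusted p = 9.38e-05), and Spred2 from 55.8, 61.7 and 50.1 to 28.4 (-0.97, SE 0.16, adjusted p = 1.16e-03). Spry1, read by RPKM alone and under the limit of 5, was 3.60 in DMSO and 0.54 with Trametinib. By RPKM, Spry4 was 6.60 in DMSO and 0.05 with Trametinib.

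**Figure D2:**
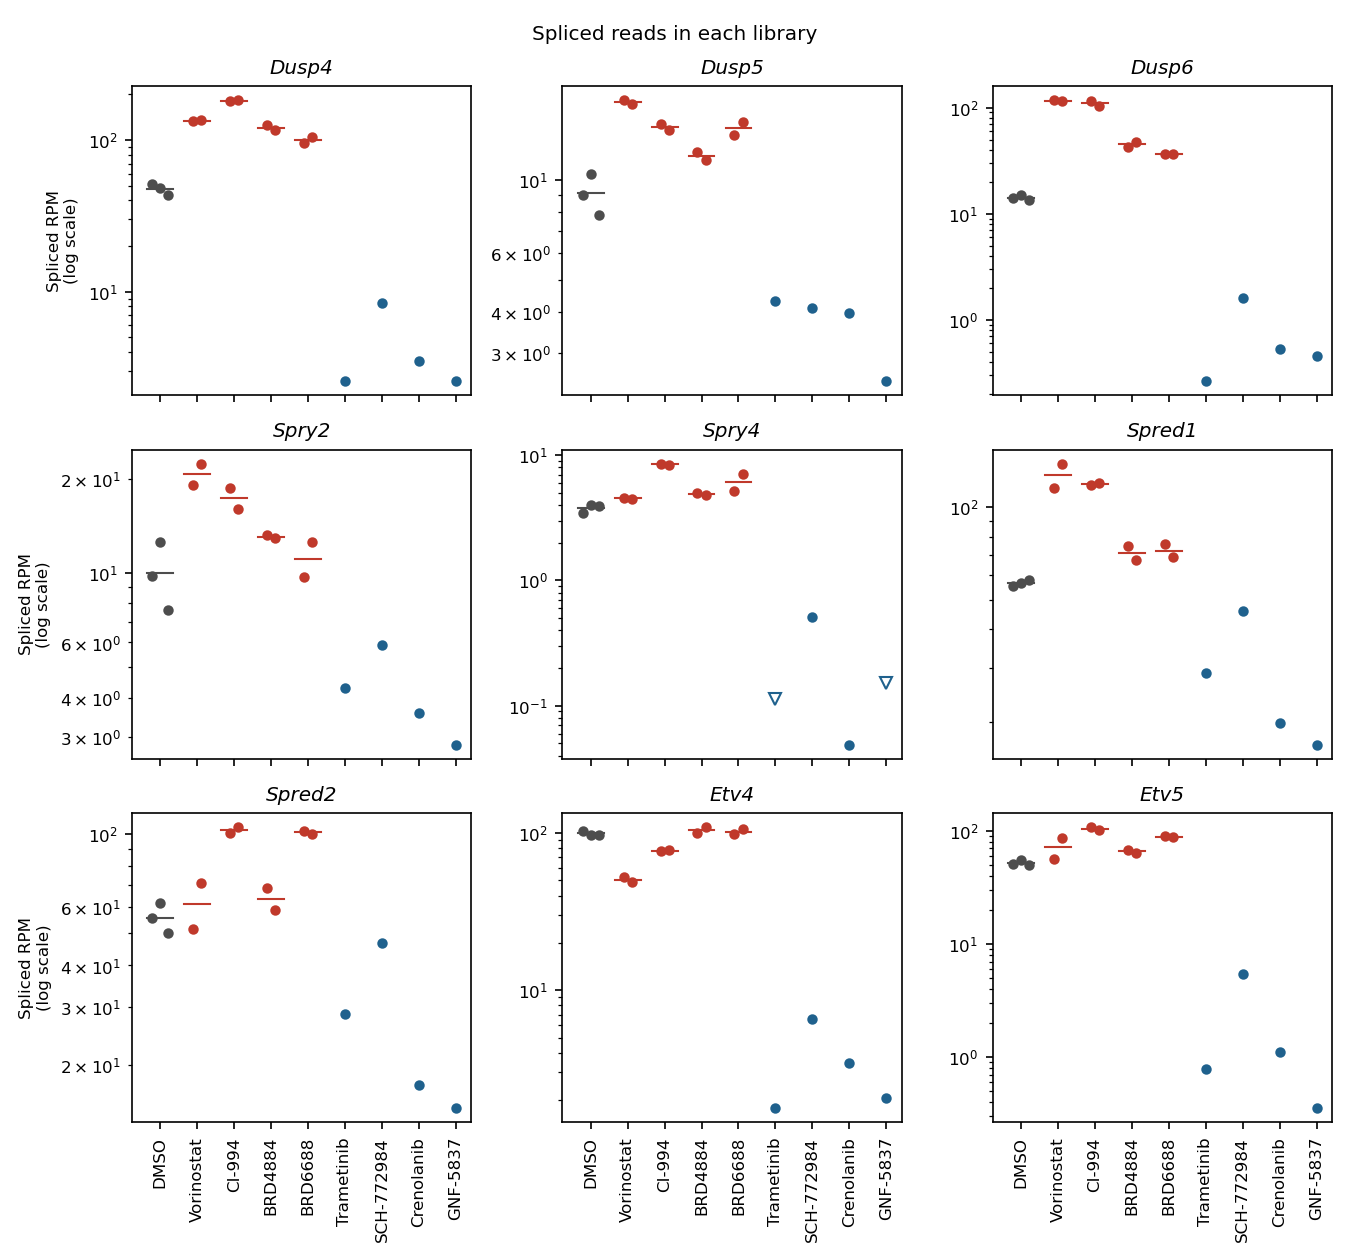
Spliced RPM, log scale, for 9 members in each library of DMSO (grey), the 4 HDAC inhibitors (red) and 4 kinase inhibitors (blue), with bars at the means of replicated groups. Open triangles mark the level of 3 reads where Spry4 had 0 reads. Trametinib lies at 0.264 for Dusp6 and 1.77 for Etv4, far below the DMSO points, while red points of Dusp4 and Dusp6 all lie above them.

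With the ERK inhibitor SCH-772984, 6 of 9 members were lower, against 3.92% of all genes. Etv4 (6.52 spliced RPM, log2 difference -3.93, adjusted p = 6.99e-11), Etv5 (5.45, -3.25, adjusted p = 1.77e-07), Dusp6 (1.60, -3.14, adjusted p = 3.45e-08), Spry4 (0.507, -2.87, adjusted p = 2.78e-05), Dusp4 (8.42, -2.50, adjusted p = 3.81e-08) and Dusp5 (4.11, -1.13, adjusted p = 2.34e-03) passed. Spry2 (-0.73, adjusted p = 0.0985), Spred1 (-0.31, adjusted p = 0.137) and Spred2 (-0.26, adjusted p = 0.374) did not, although all 3 single values lay below the DMSO libraries, as did 33.6% of all genes. By RPKM, SCH-772984 left every member above its level with Trametinib, Crenolanib and GNF-5837, for instance Dusp6 at 12.3% of DMSO against 3.13%, 2.50% and 1.999%.

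Set directly against each other, the libraries of Trametinib (1 μM) and SCH-772984 (2 μM) differed in 5 of 9 members, all lower with Trametinib, against 0.383% of all genes. The differences were -2.75 for Etv5 (adjusted p = 3.89e-05), -2.51 for Dusp6 (adjusted p = 1.09e-05), -1.86 for Etv4 (adjusted p = 1.09e-05) and -1.71 for Dusp4 (adjusted p = 4.58e-05), on the log2 scale. Spry4 had 0 and 20 reads in the 2 libraries and passed as well. For Dusp5 the difference was 0.07, with a 95% interval from -0.42 to 0.55, so that a gap as large as that of Dusp6 lay outside it. Spry2 (-0.45, interval -1.11 to 0.22), Spred1 (-0.66, adjusted p = 0.0622) and Spred2 (-0.71, adjusted p = 0.173) did not pass. With observation weights in limma (voom), 2 of the 5 remained, Dusp4 and Etv4, while Dusp6, Spry4 and Etv5 did not pass.

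With Crenolanib and GNF-5837, listed by the study for other kinases, all 9 members tested were lower, against 10.4% and 17% of all genes. With Crenolanib, Etv4 stood at 3.47 spliced RPM (log2 difference -4.83, adjusted p = 1.02e-11), Etv5 at 1.12 (-5.51, adjusted p = 3.16e-10), Dusp6 at 0.537 (-4.66, adjusted p = 2.02e-10) and Dusp4 at 3.51 (-3.75, adjusted p = 2.02e-10). With GNF-5837, Etv5 stood at 0.353 (-7.11, adjusted p = 2.31e-11), Etv4 at 2.07 (-5.57, adjusted p = 8.42e-13), Dusp6 at 0.454 (-4.89, adjusted p = 8.48e-11) and Dusp4 at 2.57 (-4.20, adjusted p = 5.73e-11). Spry4 had 1 read with Crenolanib, 77.4-fold lower with a counting interval from 13.9 to 3059, and 0 reads with GNF-5837, at least 24.98-fold lower. Intervals and limits of this kind cover counting error only.

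Spred1 was 19.8 spliced RPM with Crenolanib and 16.8 with GNF-5837, against 28.8 with Trametinib. Spred2 was 17.4 and 14.8, against 28.4. In contrasts added after the data were seen, GNF-5837 was lower than Trametinib for Spred1 (-0.77, adjusted p = 0.0111), Spred2 (-0.94, adjusted p = 0.0186) and Etv5 (-1.10, adjusted p = 0.0142), and higher for Dusp6 (0.76, adjusted p = 0.0269), against 3.05% of all genes lower and 2.34% higher. Crenolanib was higher than Trametinib for Etv4 (0.96, adjusted p = 3.55e-03) and Dusp6 (0.99, adjusted p = 0.0224), which had 11 and 7 reads in the 2 libraries, and for Spry4, against 0.579% of all genes, where 1 and 0 reads were counted and the call was lost when 2 reads were added in place of 0.5. By RPKM the order for Dusp6 was the reverse, 0.69 with Trametinib, 0.55 with Crenolanib and 0.44 with GNF-5837. The spliced reads of Dusp6 numbered 9 with GNF-5837, and the counting intervals of its 3 libraries overlapped (0.106 to 0.545, 0.268 to 0.961 and 0.208 to 0.862 spliced RPM). The Etv5 difference likewise rests on few reads, 7 with GNF-5837, and is limited by depth. With the voom weights none of these differences from Trametinib passed.

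**Figure D3:**
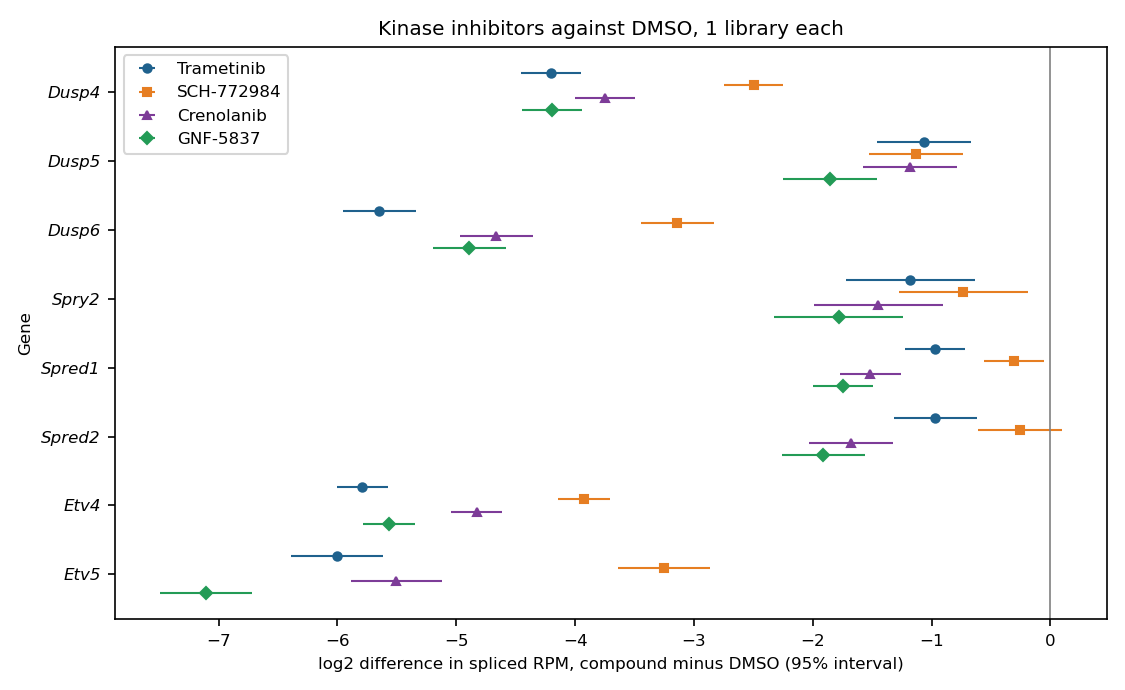
Log2 difference in spliced RPM from DMSO for 8 members under Trametinib, SCH-772984, Crenolanib and GNF-5837, with 95% intervals from the limma fit and 1 library per compound. The intervals take their spread from the replicated groups and leave out the larger counting error of low reads. For Dusp4, Dusp6, Etv4 and Etv5 the SCH-772984 point lies closer to 0 than the other 3, while for Dusp5 its interval overlaps those of the other 3.

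Lower values were seen at each intron with enough reads. Of the introns with at least 20 reads on average in DMSO, every one was lower with each of the 4 inhibitors, 11 of 11 in Etv4, 6 of 6 in Spred1, 5 of 5 in Etv5 and Spred2, and 3 of 3 in Dusp4 and Dusp5. Some differences were small. With SCH-772984, where Spred1 and Spred2 did not pass, their least changed introns lay at -0.21 and -0.06 on the log2 scale. Introns of a gene share its level, so their directions are not independent. One intron of Etv4 had too few reads, and Spry2 and Spry4 had 1 intron each, so that nothing along those genes could be compared. For 9 of 10 members the 4 inhibitors were also the 4 lowest of the 28 conditions by RPKM.

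With the HDAC inhibitors the phosphatase transcripts rose, and Etv4 fell with Vorinostat and CI-994. With Vorinostat 6 of 9 members were higher and 1 lower, with CI-994 8 higher and 1 lower, with BRD4884 5 higher and with BRD6688 7 higher. The background was high, 41.5%, 41.3%, 41.1% and 40.2% of all genes higher and, for the first 2 compounds, 34.2% and 35.3% lower. The counts of members are to be read against these shares.

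Dusp6 gave the largest increases among the members. From 13.96, 15.1 and 13.6 spliced RPM in DMSO it stood at 118 and 115 with Vorinostat (8.17-fold, log2 difference 3.03, adjusted p = 8.29e-11) and at 116 and 104 with CI-994 (7.71-fold, 2.95, adjusted p = 1.30e-10). It was 42.9 and 47.5 with BRD4884 (3.18-fold) and 36.4 and 36.2 with BRD6688 (2.55-fold), and none of these libraries overlapped DMSO. Over all genes, 44%, 46.5%, 50.4% and 48.3% lay above the DMSO range with Vorinostat, CI-994, BRD4884 and BRD6688. Dusp4 was 180 and 183 with CI-994 (3.81-fold, 1.93, adjusted p = 9.03e-10), 134 and 135 with Vorinostat (2.82-fold), 125 and 116 with BRD4884 (2.53-fold) and 95.3 and 105 with BRD6688 (2.11-fold). Dusp4 was highest with CI-994, whereas for Dusp6 the libraries of Vorinostat and CI-994 overlapped.

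Dusp5 moved less, from 8.99, 10.4 and 7.84 in DMSO to 17.3 and 16.9 with Vorinostat (log2 difference 0.93, adjusted p = 6.26e-05), and passed with all 4 compounds, although the call with BRD4884 (0.39, adjusted p = 0.0345) was lost in 6 of 16 alternative settings, where the difference ran from 0.24 to 0.43. By RPKM it was 6.33 in DMSO and 6.25 with CI-994, so that its increase with CI-994 of 0.67 appeared on the spliced-read scale alone. The median of all genes lay at -0.44 on the RPKM scale and 0.08 on the spliced-read scale for CI-994.

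Among the inhibitors of RAS, Spred1 rose with all 4 compounds, most with Vorinostat (115 and 139 spliced RPM, log2 difference 1.16, adjusted p = 1.17e-07) and CI-994 (118 and 120, 1.07, adjusted p = 2.63e-07). Spred2 rose with CI-994 (101 and 105) and BRD6688 (102 and 100) but stood at 51.7 and 71.2 with Vorinostat and 68.5 and 58.8 with BRD4884, where it did not pass. Spry4 rose with CI-994 (8.55 and 8.33, 1.16, adjusted p = 2.29e-04) and BRD6688 (5.22 and 7.04, 0.68, adjusted p = 0.0125), and Spry2 with Vorinostat (1.08, adjusted p = 2.49e-04) and CI-994 (0.82, adjusted p = 2.00e-03). By RPKM, Spry4 was 6.60 in DMSO, 7.74 with CI-994 and 6.81 with BRD6688, a smaller difference than by spliced reads. The call of Spry4 with BRD6688 was lost without its replicate B (0.47). The calls of Spred1 with BRD4884 and BRD6688 were lost with median-of-ratios size factors and without replicate A of the compound (0.18 to 0.25 and 0.24 to 0.28).

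The ETS factors parted under HDAC inhibition. Etv4 fell with Vorinostat to 52.7 and 48.5 spliced RPM (log2 difference -0.97, adjusted p = 1.33e-07) and with CI-994 to 77.1 and 77.4 (-0.36, adjusted p = 1.03e-03), and stood at 101 and 109 with BRD4884 and 98.7 and 105 with BRD6688. By RPKM it was 24.42, 33.98, 48.20 and 53.21 with Vorinostat, CI-994, BRD4884 and BRD6688, against 65.98 in DMSO. Etv5 rose with CI-994 to 108 and 102 (1.01, adjusted p = 2.13e-05) and with BRD6688 to 89.7 and 87.8 (0.77, adjusted p = 3.82e-04). By RPKM, Etv5 was 35 in DMSO and 32.91, 41.29, 34.46 and 41.25 with Vorinostat, CI-994, BRD4884 and BRD6688, so that these increases were smaller or absent on that scale. Its 2 Vorinostat libraries differed, at 56.6 and 86.7, and the call with Vorinostat (0.43, adjusted p = 0.0139) was lost without the higher of them, at 0.12, and with the replicate block, at 0.40. The call with BRD4884 (0.34, adjusted p = 0.0490) was lost in 12 of 16 alternative settings.

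Outside the HDAC and the 4 kinase inhibitors, 27 pairs were higher and 6 lower, and the higher ones were mostly phosphatases. The shares of all genes follow for each compound with a call. Over all 27 compounds, HDAC and kinase inhibitors included, they were 13.6% higher and 11.6% lower. Of the higher pairs counted here, Dusp6 with A-443654 alone passed 2-fold by RPKM. Over all 27 compounds Dusp4 was higher in 15, Dusp6 in 12 and Dusp5 in 8, while Etv4 was higher in 0 and lower in 9. These comparisons share the same 3 DMSO libraries, so the counts are not independent of each other. The median RPKM of Dusp4 over the 19 compounds outside the HDAC and 4 kinase inhibitors was 84.61, against 60.31 in DMSO. For Dusp6 this median was 25.09, against 22.01 in DMSO, and for Dusp5 it was 5.73, below the 6.33 of DMSO. The part of the DMSO level in these counts was not tested. With the AKT inhibitor A-443654, Dusp4 stood at 107 spliced RPM (log2 difference 1.17, adjusted p = 8.11e-05) and Dusp6 at 29.9 (1.07, adjusted p = 4.59e-04), against 6.58% of all genes higher. NVP-AEW-541 and MK-1775 also gave higher Dusp4 and Dusp6, by 0.53 and 0.73 and by 0.77 and 0.60, against 20.9% and 14.8% of all genes.

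With T5985871, members moved in both directions. Dusp4 (104 spliced RPM, log2 difference 1.13, adjusted p = 5.53e-06), Dusp5 (17.8, 0.98, adjusted p = 6.22e-04) and Dusp6 (31.3, 1.14, adjusted p = 2.67e-05) rose, against 18% of all genes. Etv5 (28.6, -0.86, adjusted p = 1.25e-03), Etv4 (69.9, -0.51, adjusted p = 9.70e-04) and Spred2 (38.9, -0.52, adjusted p = 0.0168) fell, against 35.3%, while Spred1 (0.01), Spry2 (0.09) and Spry4 (0.05) did not pass. With AW00693 the 3 phosphatases were higher (0.78, 0.56 and 0.75, against 10.9% of all genes) and Etv5 lower (-0.69, against 20.6%), and with T5635931 they were higher by 0.69, 0.65 and 0.46 (7.89%). Leaving out DMSO replicate A or C removed the calls of Dusp5 with AW00693 (0.46 to 0.56) and of Dusp5 (0.55 to 0.64) and Dusp6 (0.43 to 0.46) with T5635931, and leaving out DMSO replicate B or using median-of-ratios size factors removed that of Spred2 with T5985871 (-0.44 to -0.30).

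BTB13120 had 6 members higher, against 15.6% of all genes. Spred2 reached 113 spliced RPM (log2 difference 1.02, adjusted p = 1.04e-03), the highest level of Spred2 by RPKM as well at 49.56, and Dusp4 (0.93), Etv5 (0.84), Dusp5 (0.79), Spry4 (0.78) and Dusp6 (0.64) passed too. With BTBS00065, Dusp4 (0.56), Dusp6 (0.71) and Spred2 (0.51) were higher, against 20.1% of all genes, and Etv4 was lower (-0.31, against 7.29%). With the ChemBridge compound, Dusp4 was higher (0.79, against 6.33%) and Etv4 lower (-0.35, against 8.32%). JFD00822 and T5758020 had higher Dusp4 alone (0.60 and 0.74, against 2.28% and 6.38%), and the call with JFD00822 was lost with the replicate block (0.53). Leaving out 1 DMSO replicate removed the calls of Spry4 with BTB13120, which was lost in 9 of 16 settings (0.71 to 0.86), of Etv4 with BTBS00065 (-0.33 to -0.28) and the ChemBridge compound (-0.37 to -0.32), and of Spred2 with BTBS00065 (0.43 to 0.51, replicate A or C). The other 8 compounds had no member past the limit with limma.

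The members followed each other across conditions mainly through the 4 kinase inhibitors. Pearson's r of log2(RPKM + 0.5) between members over the 28 conditions, which share their DMSO background and normalisation, ran from 0.72 to 0.99 in 45 pairs (median 0.88). Over the 24 conditions without the 4 inhibitors it ran from -0.76 to 0.87 (median 0.21), with 33 of 45 pairs above 0. The genes whose profile was most like the mean standardised profile of the members, out of 11468, were Enc1 (r = 0.97), Ngfr (0.96), Dkk1 (0.95), Vgf (0.95), Shb (0.95), Irs2 (0.95), Plk3 (0.94) and Maff (0.93). Vgf, a secreted neuropeptide precursor, went from 107.94 RPKM in DMSO to 12.02, 31.13, 7.10 and 3.70 with Trametinib, SCH-772984, Crenolanib and GNF-5837. Without the 4 inhibitors r stayed at 0.93 for Enc1 and Irs2 and was 0.50 for Plk3.

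Other genes of the pathway were read from lists. Of 13 other ERK-responsive transcripts, 10 could be tested by spliced reads, and 7, 6, 8 and 7 were lower with Trametinib, SCH-772984, Crenolanib and GNF-5837, with 0 higher, against 8.71%, 3.92%, 10.4% and 17% of all genes lower. Egr1, an immediate early transcription factor, went from 16.84 RPKM to 0.26 with Trametinib and 0.35 with SCH-772984, but to 1.51 and 1.23 with Crenolanib and GNF-5837. Its spliced reads were higher with Crenolanib than with Trametinib by 2.61 on the log2 scale (adjusted p = 3.55e-03) and did not pass between Trametinib and SCH-772984 (1.06, adjusted p = 0.247). At 0.26 RPKM with Trametinib, these contrasts of Egr1 can rest on few reads, and the alternative settings were not run on them. Phlda1, a regulator of receptor signalling and cell death, went from 5.40 RPKM to 0.53, 1.15, 0.86 and 0.64, Plaur, the urokinase receptor, from 19.94 to 7.99, 7.67, 4.17 and 4.88, and Etv1, the third PEA3 factor, from 19.89 to 3.58, 12.08, 2.55 and 1.60. Ccnd1, which encodes cyclin D1, went from 93.54 to 40.50, 63.35, 38.35 and 21.

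Negative regulators outside the member list moved in both directions. Of 15 tested, 2, 2, 5 and 3 were lower, against the same shares of all genes, and 3, 1, 5 and 5 higher with the 4 inhibitors, where 12.2%, 4.25%, 18.1% and 25.4% of all genes were higher, and among those over 5 RPKM only Dusp2 with GNF-5837 passed 2-fold by RPKM. Under that limit, Il17rd, a membrane inhibitor of receptor signalling, went from 1.90 RPKM to 0.43, 0.85, 0.36 and 0.50, and Spred3 from 4.11 to 1.84, 2.73, 1.24 and 1.13, both named after their values were seen. Of 23 tested components of the RAS-ERK cascade itself, 0 were lower and 3, 1, 3 and 9 were higher, and none passed 2-fold. Among 14 receptor tyrosine kinases tested, 3, 2, 1 and 2 were lower and 3, 1, 5 and 5 higher, and Ret, the receptor of glial cell line-derived factors, was lower in all 4, from 131.73 RPKM to 30.62, 47.30, 17.57 and 15.04.

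Changes in splicing among the members were no more frequent than over all events, and those found lay in Etv4. Percent spliced in (PSI), the share of transcripts that include an exon or other segment, was read for 71 events of the members that passed coverage filters in all DMSO libraries. An event was counted as changed at 10 PSI or more from the DMSO mean and outside the DMSO range. There were 16 changed pairs of event and compound of 1747, or 0.916%, against 1.1% of all events, and they came from 4 events, all of Etv4, under 13 compounds. Etv4 had 32 of the 71 events, Spred1 10, Etv5 9 and the others 6 or fewer.

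An Etv4 exon of 111 nt (mm9, chr11:101645831-101645941), near the 5′ end, had PSI values of 71.9, 66.4 and 54.8 in DMSO. It was included more with BRD4884 (85.2 and 88.2), BRD6688 (87.8 and 86.9) and CI-994 (86.7 and 87.3), and 77.7 with BTB13120, 75.5 with BTB12021 and 75.0 with S02045 were also counted as changed. Vorinostat, at 63.2 and 73.7, had 1 library within the DMSO range. An exon of 165 nt (mm9, chr11:101635395-101635559) had 71.8, 74.2 and 80.4 in DMSO and was included more with Vorinostat (94.3 and 86.8). It was included less with RDR00572 (45.5), BTB12021 (52.7), S02045 (57.1), SCH-772984 (57.1, from 42 reads), RH01954 (57.4), MK-1775 (61.5) and JFD00822 (62.9). The remaining 2 events were an alternative acceptor 18 nt apart with T5758020. The reads behind a value ran from 69 to 1990 for the 111-nt exon and from 42 to 554 for the 165-nt exon, and Trametinib, Crenolanib and GNF-5837 left too few for either.

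**Figure D4:**
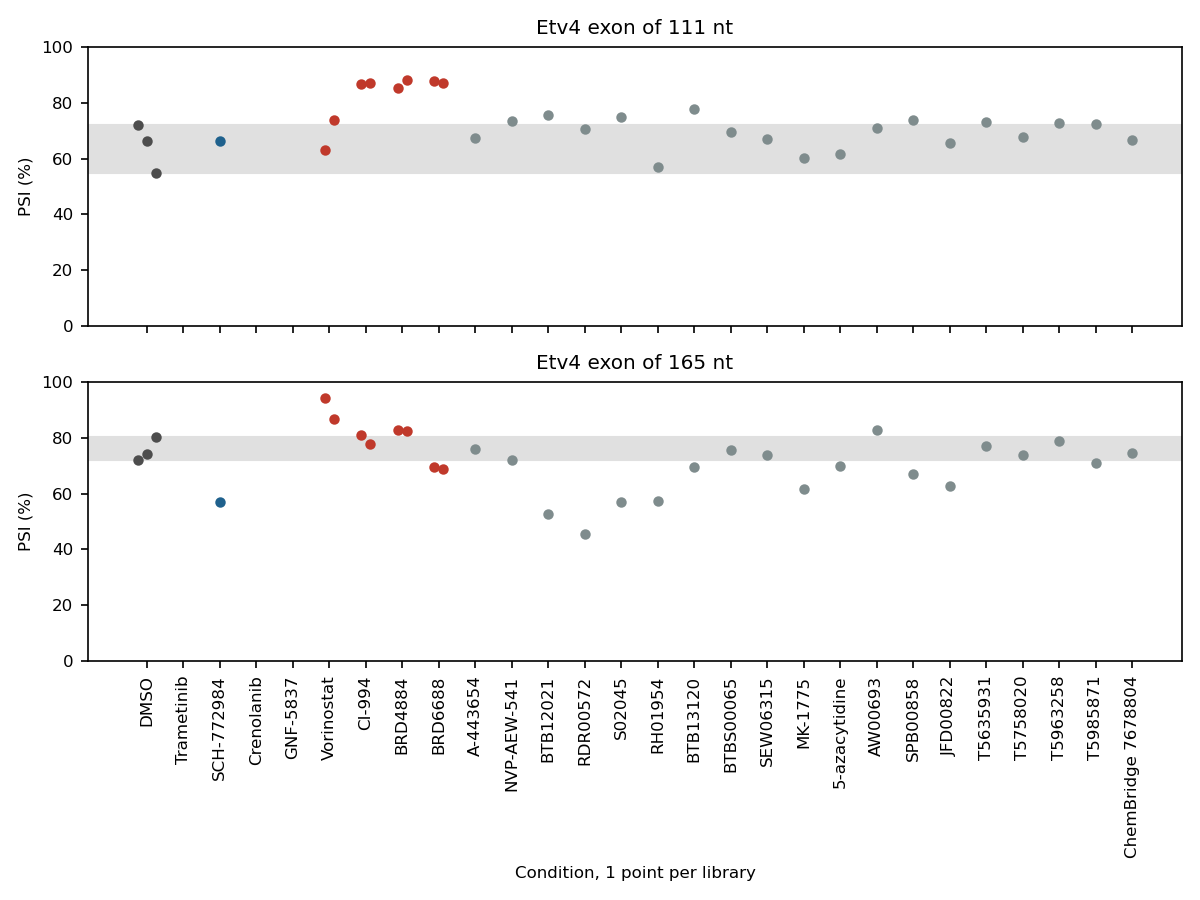
PSI of the 111-nt and 165-nt exons of Etv4 in each library, with the DMSO range in grey, HDAC inhibitors in red and SCH-772984 in blue. The 6 libraries of CI-994, BRD4884 and BRD6688 lie at 85.2 to 88.2 for the 111-nt exon, above the DMSO range, and RDR00572 lies lowest for the 165-nt exon at 45.5.

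Reads along Etv4 did not move together with CI-994, BRD6688, BTB13120 and RDR00572, which was noticed after the data were seen. Introns 1 to 4 of 12, counted from the 5′ end, held 36.5% ± 2.60 (SD, n = 3) of the spliced reads of Etv4 in DMSO. They held 57.6% and 58.0% with CI-994, 56.8% and 59.2% with BRD6688, 57.5% with BTB13120 and 51.1% with RDR00572. The last 2 compounds are not HDAC inhibitors and had 1 library each. BRD4884 (36.8% and 47.5%) and Vorinostat (36.4% and 46.1%) had 1 library each within the DMSO range of 33.5% to 38.1%. With CI-994 the sum over introns 1 to 4 was higher by 0.30 and over introns 5 to 12 lower by 0.95 on the log2 scale. The differences were 0.71 and -0.56 with BRD6688 and 0.55 and -0.31 with RDR00572. The sum of Etv4 over all introns with BRD6688, which did not pass (0.04, adjusted p = 0.686), joined a higher 5′ part and a lower 3′ part. A shift of 10 points or more to the first introns was found in 5.31%, 6.36%, 12.1% and 4.35% of 6256 genes with CI-994, BRD6688, BTB13120 and RDR00572. The median gene moved by 1.88, 1.87, 3.06 and 1.98 points. The part of this general shift in the values of Etv4 was not tested.

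**Figure D5:**
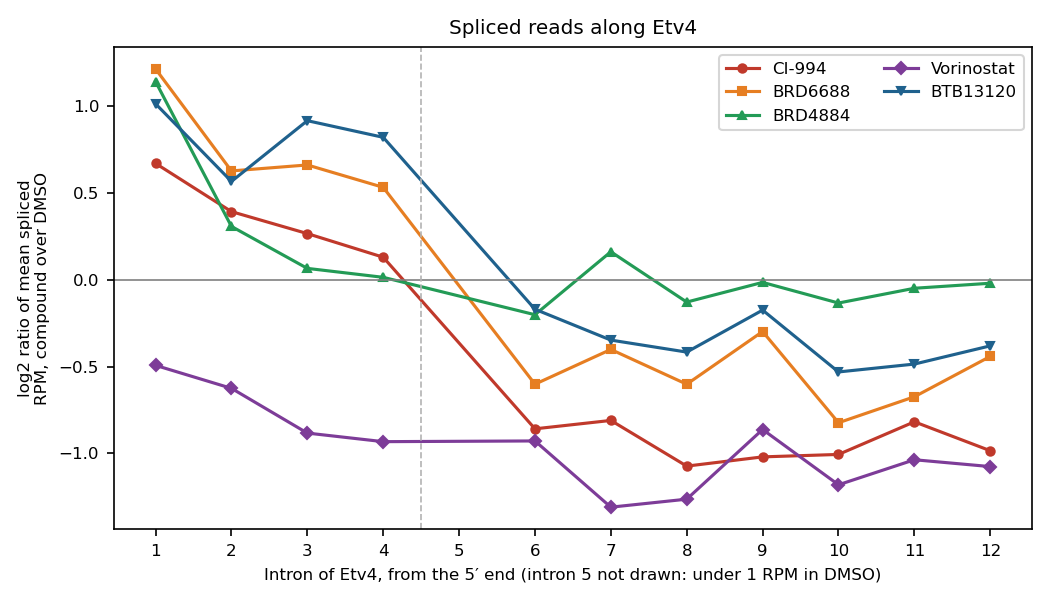
Log2 ratio of mean spliced RPM to DMSO at each Etv4 intron, from the 5′ end, for CI-994, BRD6688, BRD4884, Vorinostat and BTB13120, with intron 5 left out for its low reads and a dashed line after intron 4. CI-994, BRD6688 and BTB13120 lie above 0 before the line and below 0 after it, while Vorinostat lies below 0 throughout.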

How the data were processed

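The members and the gene lists were chosen with earlier results of these data known. For the RPKM values, the authors quantified GENCODE transcripts with Salmon, summed them to genes and merged replicates into 1 value per condition. The deposited percent values (PSI) and the read evidence behind them were made by the authors with vast-tools on mm9, per library. The deposited log2 fold changes, p-values and FDR, from the authors' exact test in edgeR, were not used, nor was the table of splicing calls.

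For RPKM, 0.5 was added before log2 ratios, and calls needed 2-fold and over 5 RPKM in either condition. Exon-exon junction reads of each intron were summed per gene and library, genes under 10 reads on average were left out, and their log2 values scaled to the library total (0.5 reads added) were fitted with limma 3.58.1 (trend, R 4.3.3) over 34 libraries in 1 model without covariates. Spliced reads depend on annotated introns and the kit did not mark strand, so reads of overlapping genes cannot be told apart. The fit was tested on simulated data before use. Splicing events needed the coverage and balance filters of the study. The letters of replicates were not used as a block. Named genes were all members, the 8 genes most like their mean profile, and list genes past 2-fold with Trametinib or SCH-772984. Some of the genes and intervals named beyond that rule were chosen after their values were seen. Crenolanib and GNF-5837 against Trametinib and the reads along Etv4 were added after the data were seen. The alternatives were the pseudocount, the RPKM limit, centring, the fold limit, size factors, the read filter, the reads added, voom weights, the replicate block and leaving out each replicate. The labels give 3 DMSO libraries, all of which were used, while the study states 2 biological replicates of DMSO. The values of some marker and receptor genes and targets are not reported here.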

Additional observations from a re-analysis of the deposited data

How the results depend on the processing

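None of the 106 called differences in spliced reads or the 90 named RPKM ratios changed sign under the alternatives run on them. Of the 106 called differences in spliced reads, 81 kept their call in all 16 settings and 25 lost it in at least 1. By RPKM, higher pairs of member and compound numbered 14 when centred on the median of all genes and 25 at a 1.5-fold limit, against 8. The members that differed between Trametinib and SCH-772984 numbered 2 with voom weights, against 5, and the cause was not tested. Changed splicing events numbered 9 at a limit of 15 PSI, against 16, since a higher limit keeps fewer. Without 1 replicate at a time, higher pairs by spliced reads ranged from 46 to 67 and lower pairs from 38 to 48, members lower with Trametinib from 9 to 9, members lower with SCH-772984 from 6 to 8, members that differed between the 2 from 5 to 7, and changed splicing events from 16 to 24, with 24 reached without DMSO replicate A. For higher pairs, lower pairs, members lower with SCH-772984 and members that differed, the upper ends were reached only without a Vorinostat library. Letters of the replicates did not pair the samples (correlation of same-letter deviations from -0.10 to 0.06). The fit with the replicate block gave 39 lower and 44 higher pairs, with 14 of the 106 calls lost. It gave 9 members lower with Trametinib, 6 with SCH-772984 and 5 that differed between them. Dusp5 with Trametinib missed the 2-fold limit by RPKM at a pseudocount of 1 (-0.98) and when centred (-0.98), and Dusp6 with A-443654 missed it at a pseudocount of 1 (0.99). Calls from 0 to 20 reads in the treated library, as for Dusp6, Spry4 and Etv5, are limited by depth.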

Other observations

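The transcripts of the kinases for which the study lists Crenolanib were low in these cells. In DMSO, Pdgfra stood at 0.46 RPKM and Pdgfrb at 0.04, against 131.73 for the receptor Ret. Receptor protein and activity were not measured.

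Among the markers of sympathetic neuroblastoma, Mycn, the oncogene often amplified in this tumour, was lower with the 4 kinase inhibitors. It went from 10.86 RPKM in DMSO to 1.91 with Trametinib, 2.34 with SCH-772984, 0.90 with Crenolanib and 0.95 with GNF-5837. Stmn2, a microtubule regulator of neurons, went from 174.75 to 331.78, 260.75, 227.96 and 268.52, and Tubb3, neuronal tubulin, from 395.99 to 660.53, 482.53, 428.00 and 510.67. These merged values have no spread and were not tested, and the genes were picked from the marker list after their values were seen.

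With the HDAC inhibitors, most other ERK-responsive transcripts tested were higher by spliced reads, as were the phosphatases. Of 10 tested by spliced reads with limma, 8, 9, 7 and 6 were higher with Vorinostat, CI-994, BRD4884 and BRD6688 and 2, 1, 2 and 1 lower. Fewer passed 2-fold by RPKM, 5, 4, 3 and 2 higher and 2, 1, 0 and 0 lower, of 9, 9, 9 and 8 over 5 RPKM. Over all genes the higher shares by RPKM were 10.4%, 10.2%, 5.29% and 5.14%. Phlda1 went from 5.40 RPKM in DMSO to 53.61, 36.76, 15.49 and 15.35, while Ccnd1 went from 93.54 to 9.74, 33.77, 56.82 and 65.23. Of 15 other negative regulators, 9, 11, 9 and 10 were higher, and of 14 receptor tyrosine kinases 10, 13, 11 and 13, with Pdgfra at 4.47, 9.99, 9.12 and 5.56 RPKM. Of 23 components of the RAS-ERK cascade, 11, 12, 10 and 14 were higher and 6, 5, 3 and 4 lower by spliced reads. Between 40.2% and 41.5% of all genes were higher with these compounds.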
